A study of Danio rerio with 9 samples.

Results

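The probes described here are 81 oligonucleotides whose red signal was above the array's blank spots at the 64-cell stage and whose ratio to a pool of all stages was at least 1 lower, on the log2 scale, at the high stage than at the 64-cell stage. They were chosen by measured values. For each array the ratio of the rule was log2 of stage (Cy5, red) over pool (Cy3, green), each channel as spot mean minus local background mean, averaged over the spots of an ID and centred on the array's median. A probe counted as on when its red spot median exceeded the level that 95% of the array's 262 blank spots lie below. The members make up 81 of the 10300 IDs on at 64-cell, or 0.786%, and 81 of the 16176 IDs of this kind on the array. The other 10219 IDs on at 64-cell are the set they are compared with.

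RNA of whole zebrafish (Danio rerio) embryos was measured at 9 stages: 64-cell (cleavage), high, sphere and 30% epiboly (blastula), 50% epiboly, shield, 75% epiboly and 90% epiboly (gastrula), and tailbud. All embryos were uninjected, from outbred wild-type fish, incubated at 28.5 °C, and 30 to 50 of them from a single clutch were pooled per stage. Amplification started from 800 ng of total RNA, and each stage was hybridised on 1 array in red against the pool of equal amounts of all 9 stages in green. No stage had a replicate and no array with exchanged dyes was analysed here, so the number of arrays limits the precision, and a difference between 2 stages is a description of those 2 arrays with no test. In RNA of whole embryos, fewer cells with a transcript and less of it per cell cannot be told apart. The amplification kit primes on poly(A) tails, so loss of a transcript and loss of its tail cannot be told apart either.

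Early cleavage in the zebrafish runs on RNA that the mother laid down in the egg, while the embryo's own genome is nearly silent. Around the mid-blastula transition the genome becomes broadly active, and maternal transcripts are cleared, first by factors supplied by the mother and later with the help of products of the embryo, among them microRNAs. Many transcripts are both laid down by the mother and made again by the embryo, so the level at a stage is the sum of what remains and what is new. RNA present at 64-cell is taken as maternal on this background, since the arrays do not separate the origins of a transcript. The files and the name tables used here do not pair these IDs with genes and hold no probe sequence, so members are given by ID, their functions are not described and no sequence is printed.

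The median red signal of probe spots ranged from 324.5 at shield to 995 at 64-cell, and the number of IDs on ranged from 6531 at shield to 11273 at tailbud. The array median subtracted from the ratios was 0.02 at 64-cell and -0.90 at high, so the fall of a member is relative to the other probes of its array and is not an amount per embryo. The blank spots, which carry no oligonucleotide for a transcript, had a ratio of 0.67 at high, against 0.62 at 64-cell, on the scale after loess described next.

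On the scale of the rule the members fell by a median of 1.43 from 64-cell to high, with differences between -5.13 and -1.02. Of the 81, 20 fell by at least 2 and 7 by at least 3. Many lay close to the threshold: 28 fell by between 1 and 1.2, while 89 IDs just outside fell by between 0.8 and 1. The member nearest the threshold had a difference of -1.02, and the nearest ID outside had -0.99. The mirrored rule, on at high and at least 1 higher at high than at 64-cell, took 58 of the 9101 IDs on at high. The members were drawn from 10300 IDs on at 64-cell, a larger number, so the 2 counts are not like for like. Neither count can be set against replicates.

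A second scale, used for all later values unless the rule is named, was background correction with normexp and loess normalization within each array. Loess removes a dependence of the ratio on brightness and centres each array. The sign of a ratio is thus relative to probes of like brightness on that array, called typical probes below. It does not compare amounts with the pool. On the loess scale 48 of the 81 members fell by at least 1, and 79 were lower at high than at 64-cell. Among all 16108 tested probes 0.410% were at least 2-fold lower at high and 0.379% at least 2-fold higher, so both directions were about as frequent. Of the other 10219 IDs on at 64-cell, 9 were at least 2-fold lower and 34 at least 2-fold higher. These counts use the contrast of the rule and are given as a description. The median difference, high minus 64-cell, was -1.08, and it spanned 0.77 to -3.93.

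The members as a set were highest at 64-cell and lowest at high, and at the later stages their median lay near the level of typical probes. The rule chose members high at 64-cell and low at high, so this shape is partly fixed by it and is a description. Their median log2 ratio was 0.61 at 64-cell and -0.51 at high. At the 7 later stages the median lay between -0.16 (75% epiboly) and 0.01 (90% epiboly). In red signal relative to the blank level of each array, the median member stood at 3.02 at 64-cell and 0.859 at high. It was 1.37 at sphere, 1.05 and 1.03 at 30% and 50% epiboly, 0.725 at shield, 1.21 and 1.35 at 75% and 90% epiboly, and 1.71 at tailbud. The median member was thus below the blank level at high and again at shield, the dimmest array.

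The number of members on was lowest at shield, followed by high. All 81 were on at 64-cell by the rule, and 34 were on at high. The count was 50 at sphere, 41 and 42 at 30% and 50% epiboly, 29 at shield, 46 and 50 at 75% and 90% epiboly, and 56 at tailbud. At high the share on was 42.0% among members, against 88.0% among the other IDs on at 64-cell, a contrast that the rule itself favours. Among the other IDs the share was 87.8% at sphere, 78.9% and 81.6% at 30% and 50% epiboly, 59.9% at shield, 89.5% and 86.9% at 75% and 90% epiboly, and 91.7% at tailbud. Shield was thus the stage with the fewest probes on in both sets. Of the 47 members off at high, 18 were on at sphere and 34 on at some later stage, and of the 1226 other IDs off at high, 390 were on at sphere and 1083 on at a later stage.

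Members ranged from a signal seen at a single stage to one seen at every stage. 13 were on at 64-cell alone (16.0%, against 1.40% of the other IDs), and 21 were on at all 9 stages (25.9%, against 56.6% of the other IDs). A member was chosen for a fall at high, so both shares are partly built into the rule. The 13 seen at 64-cell alone were mostly dim even there, with a median of 1.62 times the blank level at 64-cell and 0.47 times at high. Brighter at 64-cell were CGENXEB_456002348_0, with 7.31 times the blank level, and CGENXEB_456007692_0, with 6.40 times. The 21 on throughout had medians of 6.62 times at 64-cell, 1.75 at high and 5.15 at tailbud. For 12 members the 64-cell ratio was at least 1 above every other stage, which 1 of the other 10219 IDs also showed. For 6 members the high ratio was at least 1 below every other stage, as for 2 of the other IDs. Both of these last comparisons rest partly on the contrast of the rule.

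The name maternal transcripts falling before high fits the 64-cell and high arrays by construction, and the sphere array was not used by the rule. At sphere 46 members had a ratio nearer to their high value and 35, or 43.2%, a ratio nearer to their 64-cell value. Among the other IDs on at 64-cell 46.0% were nearer to 64-cell, a share near that of the members. The other IDs hardly differed between the 2 arrays, with a median of 0.02 for high minus 64-cell, so the 2 shares are not a like comparison. The sphere ratio was below the 64-cell ratio by at least 1 in 25 members (30.9%, against 1.36% of the other IDs) and above the high ratio by at least 1 in 17. Both counts are measured from an array on which the members were chosen. The last count was 16 of the 80 tested members, where 1.42% of all tested probes were at least 2-fold higher at sphere than at high. The sphere value lay a median of 35.3% of the way from the high back to the 64-cell ratio. The working name says nothing of sphere, where the fall lasted in some members and not in others.

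**Figure D1:**
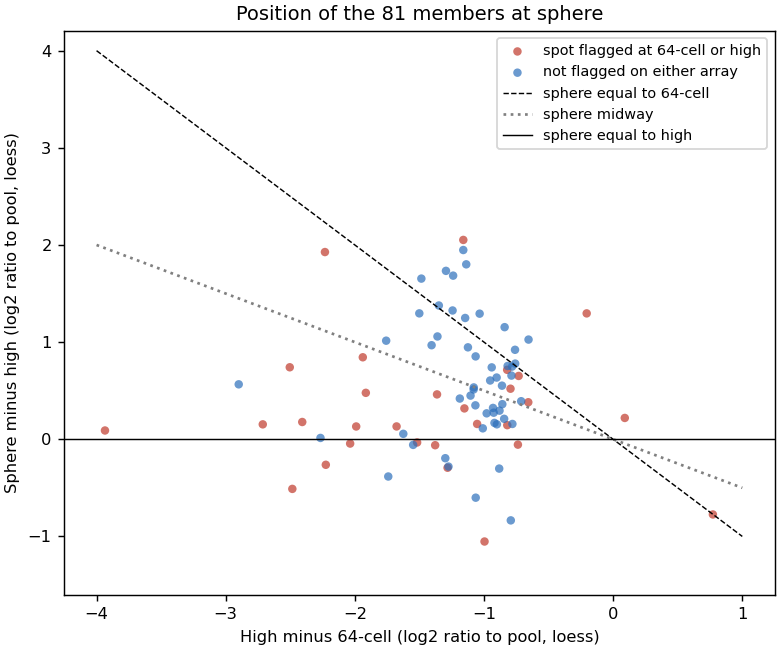
Sphere minus high (vertical axis) plotted against high minus 64-cell (horizontal axis), both as differences of log2 ratios after loess, 1 point per member, with lines for no change and for a full return. The members spread between the lines and beyond them. At sphere 16 of the 81 lie below high, 65 lie below 64-cell, and 17 lie at least 1 above high.

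The plot of sphere against the earlier fall shows a continuous spread, which the split at the midpoint divides. The 46 members nearer high had median ratios of 1.09 at 64-cell and -0.22 at high, then -0.08 at sphere, -0.26 at 30% epiboly and 0.19 at tailbud. In the median these members were above typical probes at 64-cell and near them afterwards, but single members departed from this course, as CGENXEB_456000333_0 described below. The 35 members nearer 64-cell had median ratios of 0.18 at 64-cell and -0.89 at high, then 0.26 at sphere, 0.09 at 30% epiboly and -0.11 at tailbud. Here the median was farthest from typical probes at high, and single members lay far from them at other stages too. The split was made on the same values, so its medians are a description.

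**Figure D2:**
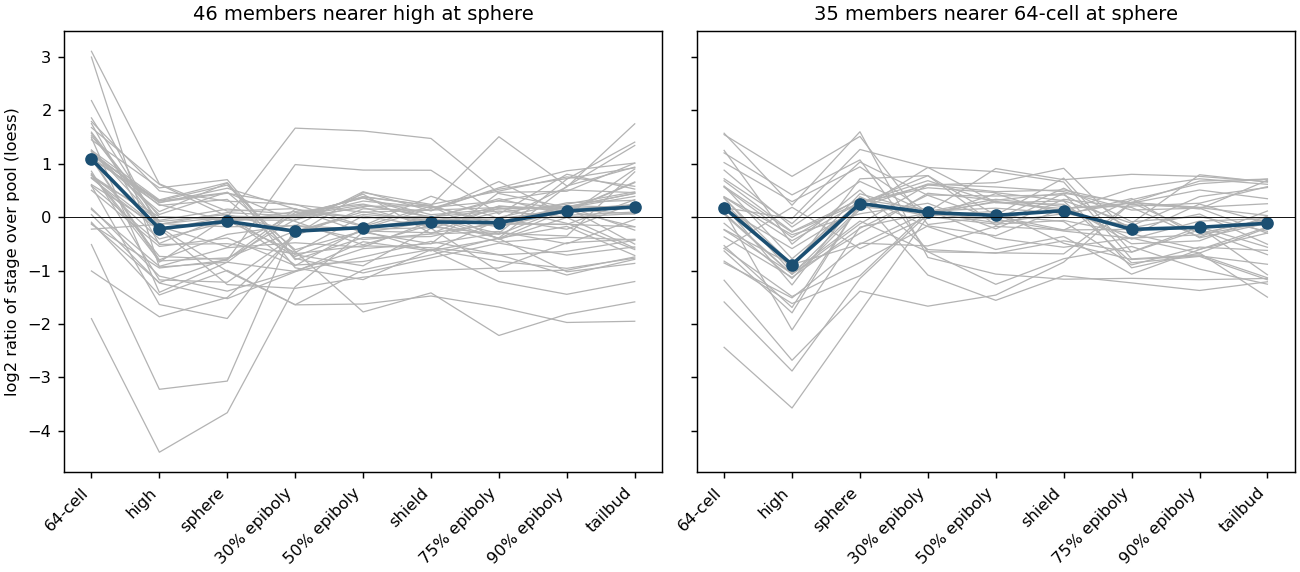
Log2 ratio of stage over pool after loess (vertical axis) at the 9 stages (horizontal axis), 1 line per member, for the 46 members nearer high at sphere (left) and the 35 nearer 64-cell (right), with the median drawn over them. The left median drops after 64-cell and stays near 0, while the right median is lowest at high, at -0.89, and is above 0 at sphere and below 0 at tailbud.

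Flags of the scanner software and the green channel bear on the quality of the members' spots. The scanner software flagged a spot of a member on the high array in 19 cases and on the 64-cell array in 16, and 52 of 81 members (64.2%) were unflagged on both, against 92.3% of the other IDs on at 64-cell. What each flag code stands for was not stated in the labels or headers. The green channel holds the same pool on every array, so it offers a check of each spot. With each channel corrected and centred on its array median, the members differed between high and 64-cell by a median of -1.43 in red and -0.13 in green. Red was lower at high in 80 of the 81 members, as the rule favours, against 64.1% of the other IDs. The exception was CGENXEB_456000320_0, flagged at high, where red was 2.97 higher and green 4.85 higher than at 64-cell. Its ratio fell because green rose more than red. Green differed by at least 1 in 12 members (14.8%), against 0.411% of the other IDs, and all 12 carried a flag on one or the other array. None of the 52 unflagged members had such a difference. The unflagged members fell by a median of 1.28 in red and had a green difference of -0.04, while the 29 flagged members had medians of -2.60 in red and -0.51 in green. These channel values rest on spot means, and at 64-cell a member's red mean was up to 15.7 times its spot median. CGENXEB_456008196_0, flagged at 64-cell, had -5.52 in red and -3.71 in green. Its red spot median was 190 at high, against 667.5 at 64-cell, and its green 489 at high, against 611 at 64-cell.

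**Figure D3:**
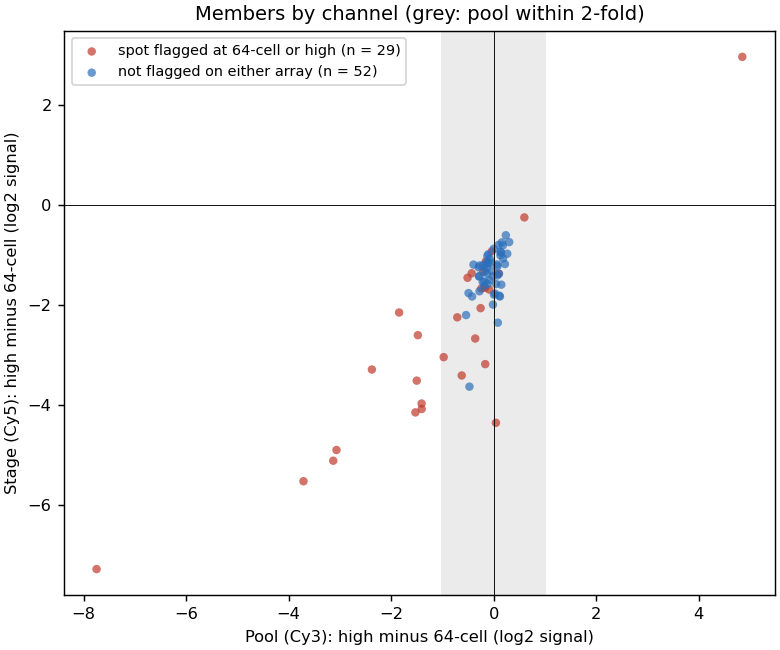
Change from 64-cell to high of the green pool channel and the red stage channel, as high minus 64-cell in log2 after centring, 1 point per member and marked by whether its spot was flagged on either array. Unflagged members lie within 1 of 0 in green, and the 12 members beyond 1 in green are all flagged.

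At sphere 8 of the 29 flagged members and 27 of the 52 unflagged members were nearer 64-cell. The difference between these shares was not tested, since the members were chosen on the arrays that carry the flags. The members were spread over the array: they lay in 30 of the 32 print blocks, with at most 6 in any block. Only 3 members had 2 spots, and for these the spots gave the same direction. CGENXEB_456000928_0 had rule ratios of -0.80 and 0.14 at high, against 1.97 and 1.63 at 64-cell. CGENXEB_456000930_0 had -1.18 and -0.61 at high, against 1.55 and 0.91 at 64-cell. The spots of the third are given with that probe below.

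CGENXEB_456001074_0 had the largest fall after loess among members unflagged at 64-cell and high, and it was unflagged on all 9 arrays. Its red spot medians, averaged over 2 spots, were 16249 at 64-cell and 660 at high. They were 1156 at sphere, 1800 and 1245 at 30% and 50% epiboly, 884 at shield, 2404 and 2521 at 75% and 90% epiboly, and 2625 at tailbud. Only 64-cell was far above the rest, and the probe was on at every stage. Its green signal, the pool, lay between 1068 at shield and 3122 at 64-cell. The log2 ratio was -1.41 at high, against 1.49 at 64-cell, and it was -0.84 at sphere and 0.24 at tailbud. On the rule's scale its spots read -1.05 and -0.58 at high, against 2.09 and 2.61 at 64-cell. In the red channel after loess and Aquantile normalization the high signal was lower by 10.1-fold, a value open to dye bias because no balanced swaps were used, as are all red-channel folds given here.

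CGENXEB_456000798_0, with the next largest fall among the unflagged members, was on at 64-cell alone. Its red spot median was 1211 at 64-cell and between 143 (50% epiboly) and 221 (75% epiboly) at the 8 other stages. Its green signal stayed between 393 at shield and 535 at 75% epiboly, where the median green signals of those arrays were 548 and 1188. No blank level was used for green, so a steady reading of the pool and one near background cannot be told apart. The red signal at high was at least 2.48-fold lower than at 64-cell, a bound because the high spot did not exceed the blank level. Its ratio was -0.51 at high, against 1.76 at 64-cell, and -0.43 at tailbud. Its spot was flagged on 3 of the other arrays.

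Another pair of members was chosen after their values were seen, because they show different behaviour of the pool channel at high. CGENXEB_456007692_0 had the largest fall of all on the rule's scale, with -5.13, and was flagged at high. Its red spot median was 3814 at 64-cell, 165 at high and between 145 (shield) and 252 (75% epiboly) at the other stages, while green lay between 370 at shield and 632 at 90% epiboly. Red thus dropped below its blank level and was at least 7.68-fold lower at high, while green was 502 at high and 504 at 64-cell. CGENXEB_456013500_0 was also flagged at high, and there both channels were empty: red was 135.5 at high, against 23580 at 64-cell, and green 194 at high, against 25086 at 64-cell. On the 7 later arrays its red signal lay between 7432 at shield and 23978 at 90% epiboly. Its rule ratio fell by 2.12, while after loess it was 0.77 higher at high, so its membership depended on a spot with hardly any signal in either channel.

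**Figure D4:**
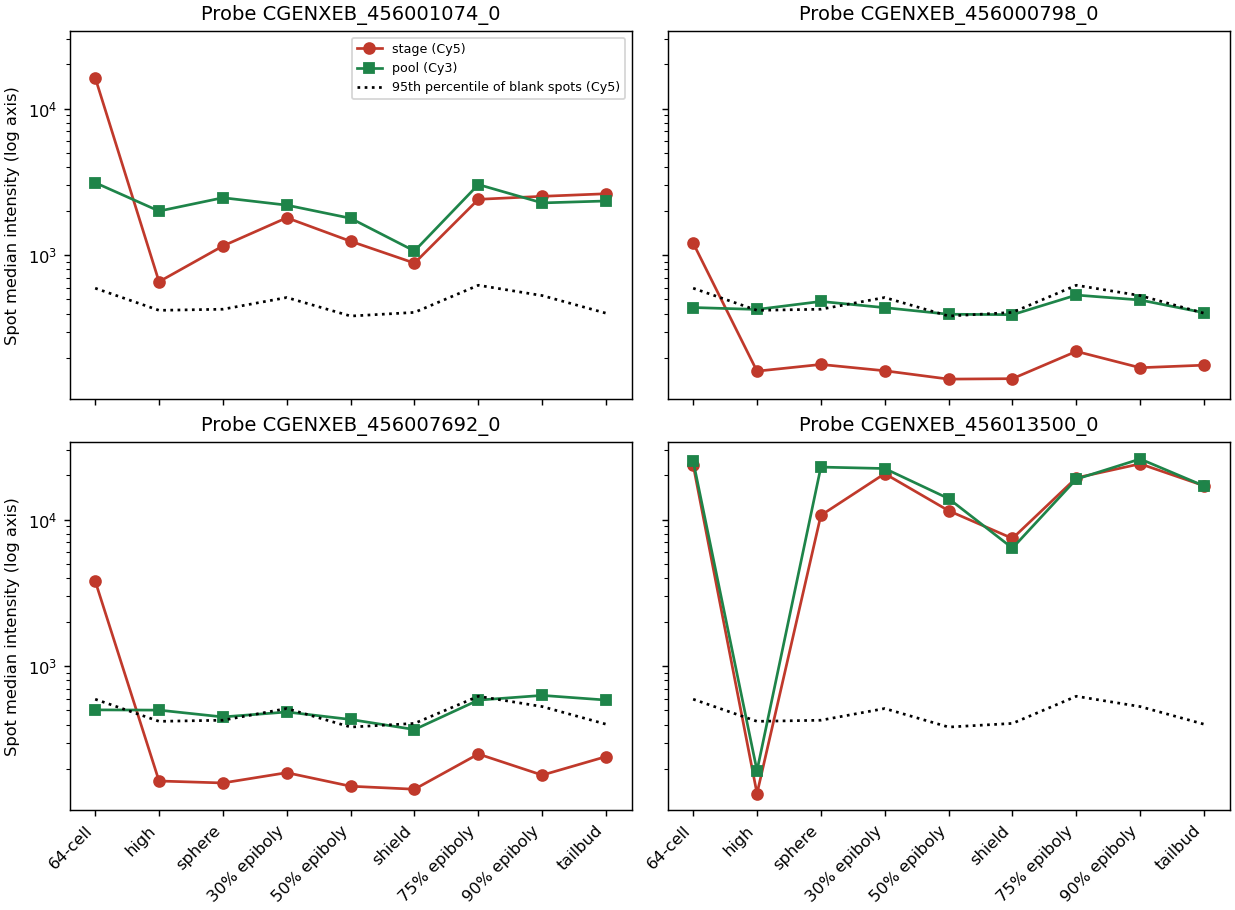
Red (stage) and green (pool) spot medians on a log axis at the 9 stages for 4 members, with the blank level of the red channel. Red drops far more than green after 64-cell in the first 3 probes, and both channels drop together at high in CGENXEB_456013500_0.

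The later arrays were not used by the rule and allow a test. A line on stage order, with equal steps between stages and not hours, was fitted in limma to the log2 ratios of the 7 arrays from sphere to tailbud. It was fitted for all 16108 tested probes, with 5 residual degrees of freedom and Benjamini-Hochberg adjustment. No stage has a replicate, so its standard errors and p-values rest on the scatter of the arrays about the line. The filter on dim spots passed 80 of the 81 members, all except CGENXEB_456002348_0. Of these 80, 16 rose (20% of those tested, where 11.0% of all tested probes rose and 11.2% of the other IDs on at 64-cell did), and 9 fell (11.2%, where 10.9% of all tested probes fell and 15.8% of the other IDs did). The share falling lay near that of all probes. The median fitted change was -0.02 among members and -0.01 among all tested probes, and 43 members had an unadjusted p under 0.05. Without the flagged members, 9 of 52 rose and 9 fell. With textbook hours in place of stage order 12 members rose and 6 fell, and the share of all tested probes called was not counted. The count of falling members was 5 without the shield array, 5 without 75% epiboly and 4 without 90% epiboly. The refits without an array have fewer residual degrees of freedom, and the share of all tested probes called in them was not counted.

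In the median the 16 rising members stood low at high and climbed from sphere to tailbud, mostly past their 64-cell ratio. Their median ratios were -0.02 at 64-cell and -1.35 at high. They were -1.18 at sphere, -0.41 and -0.25 at 30% and 50% epiboly, -0.14 at shield, 0.24 and 0.58 at 75% and 90% epiboly, and 0.71 at tailbud. At tailbud 12 of the 16 were above their 64-cell ratio, and 12 had been nearer high at sphere. The sphere and tailbud arrays are part of the fit that called these members, so both counts are partly fixed by it. The largest step was from sphere to 30% epiboly in 7 of them, from shield to 75% epiboly in 4, from 75% to 90% epiboly in 3 and from 90% epiboly to tailbud in 2.

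The 9 falling members had a different course. Their median ratios were 0.58 at 64-cell and -0.28 at high. They were 0.44 at sphere, 0.23 and 0.03 at 30% and 50% epiboly, 0.13 at shield, -0.79 and -0.67 at 75% and 90% epiboly, and -1.08 at tailbud. In the median they were lower at high than at 64-cell and sphere and below typical probes from 75% epiboly on, with exceptions among single members. None ended above its 64-cell ratio, and 2 of the 9 had been nearer high at sphere. Here too the counts are partly fixed by the fit, which includes the sphere and tailbud arrays. The step from shield to 75% epiboly was the largest in 5. All 9 were unflagged at 64-cell and high, as were 9 of the 16 rising members.

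**Figure D5:**
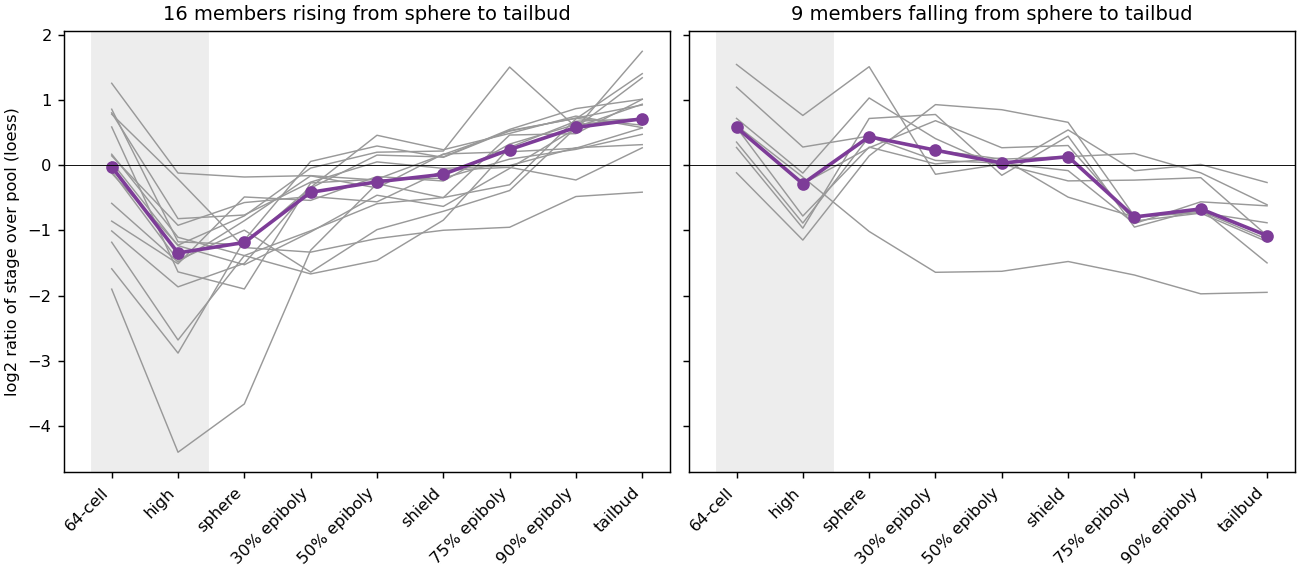
Log2 ratio of stage over pool after loess (vertical axis) at the 9 stages (horizontal axis) for the 16 members that rose from sphere to tailbud (left) and the 9 that fell (right), with medians; the shaded stages, 64-cell and high, took no part in the fit. The rising median reaches 0.71 at tailbud and the falling median -1.08.

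CGENXEB_456000333_0 had the largest fitted rise among members, 3.93 ± 0.68 (SE, 7 arrays; limma, adjusted p = 0.0062). The probe stood far below typical probes early, with a ratio of -1.90 at 64-cell and -4.41 at high. It was -3.66 at sphere, -1.30 and -0.28 at 30% and 50% epiboly, -0.50 at shield, 0.46 and 0.49 at 75% and 90% epiboly, and 1.01 at tailbud. Its red spot median of 65234 at tailbud was close to the top of the scanner's range, so that value may be saturated. The spot was flagged on 3 arrays, high among them. CGENXEB_456013028_0 rose by 2.88 ± 0.36 (SE, 7 arrays; limma, adjusted p = 0.0017), with ratios of 0.05 at 64-cell and -1.23 at high, then -1.53 at sphere and 1.75 at tailbud. It was off from high through shield, was flagged at 64-cell and high, and its red signal at high was at least 2.1-fold lower than at 64-cell.

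CGENXEB_456011913_0 had the largest fitted fall among called members, -2.22 ± 0.40 (SE, 7 arrays; limma, adjusted p = 0.0071). The probe stood above typical probes at 64-cell, with 0.27, and below them at high, with -0.97. It was 0.72 at sphere, 0.78 and -0.15 at 30% and 50% epiboly, 0.45 at shield, -0.95 and -0.67 at 75% and 90% epiboly, and -1.50 at tailbud. It was unflagged on every array, and its dip at high did not extend to sphere. CGENXEB_456010216_0, next among called members, fell by 1.87 ± 0.54 (SE, 7 arrays; limma, adjusted p = 0.040), with ratios of -0.11 at 64-cell and -1.15 at high, then 0.14 at sphere, 0.93 at 30% epiboly and -1.14 at tailbud.

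A second test asked whether members were higher or lower late in gastrulation, as the mean of 75% epiboly, 90% epiboly and tailbud minus that of 30% epiboly, 50% epiboly and shield (limma, 4 residual degrees of freedom). Stages of a period stood in for replicates, so the error mixes array noise with change between stages. By the periods given above, 30% epiboly is a blastula stage, and tailbud was given no period. The contrast called late in gastrulation here thus starts before gastrulation and runs to its end or beyond. Of 80 members 12 (15%) were higher, where 6.29% of all tested probes and 6.62% of the other IDs on at 64-cell were. Another 10 (12.5%) were lower, where 8.04% of all tested probes and 11.3% of the other IDs were, so the lower share lay near that of the other IDs. The median difference was -0.03 among members and -0.01 among all tested probes, and 36 members had an unadjusted p under 0.05. The 2 tests share arrays: 10 members were called higher in both and 5 lower in both, while 48 were called in neither. The higher count was 4 without 30% epiboly, 6 without 50% epiboly, 7 without shield, 5 without 90% epiboly and 6 without tailbud. The lower count was 4 without 30% epiboly, 6 without shield and 6 without tailbud. Calls among all tested probes were not counted in these refits either, so a loss of calls particular to members cannot be told from a general one.

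The calls can also be set beside the course at sphere, with no test of the difference between the 2 kinds of course. Among the 46 members nearer high, 8 were higher (17.4%) and 1 lower (2.17%) late in gastrulation. Among the 34 tested members nearer 64-cell, 4 were higher (11.8%) and 9 lower (26.5%). Of all tested probes 6.29% were higher and 8.04% lower. CGENXEB_456010216_0 had a late difference of -1.69 ± 0.16 (SE, 6 arrays; limma, adjusted p = 0.0022). CGENXEB_456013028_0 had 1.46 ± 0.38 (SE, 6 arrays; limma, adjusted p = 0.034).

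Single steps after high have no test and are given as counts at a 2-fold threshold over the 80 tested members. At 30% epiboly 9 members (11.2%) were higher than at sphere, where 7.44% of all tested probes were. Another 11 (13.8%) were lower, where 6.52% of all tested probes were. Among the 52 unflagged members 3 were higher (5.77%) and 11 lower (21.2%) at that step, against 7.34% and 9.99% of the other IDs on at 64-cell. Between 30% and 50% epiboly 1 member was higher and 1 lower, where 0.646% and 0.801% of all tested probes were. No member passed 2-fold between 50% epiboly and shield, where 0.155% of all tested probes were higher and 0.174% lower. From shield to 75% epiboly 2 were higher and 6 lower, where 0.813% and 1.46% of all tested probes were. At 90% epiboly 1 was higher than at 75% epiboly and none lower, where 0.329% and 0.484% of all tested probes were. At tailbud 2 were higher than at 90% epiboly and none lower, where 0.590% and 0.503% of all tested probes were. From sphere to tailbud as a whole 21 were higher (26.2%) and 16 lower (20%), where 13.7% and 13.0% of all tested probes were.

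The last array can be set beside the first and second. At tailbud 30 of the 81 members (37.0%) were at least 1 above their high ratio and 8 (9.88%) at least 1 below it, against 15.4% and 20.6% of the other IDs on at 64-cell. The tailbud ratio reached or passed the 64-cell ratio in 26 of the 81 (32.1%), against 46.2% of the other IDs. The rule chose members low at high and high at 64-cell, so these shares are partly fixed by it and are a description.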

How the data were processed

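Scanner tables of 9 arrays with 2 colours were analysed. Per the file headers, the deposited values are spot and local background intensities per channel on a linear scale, not normalized. What the flags mean, and how the images were read, was not stated. The authors' deposited log2 value table, read as stage over pool from its match to the scanner values, served as an alternative. The membership rule was applied to the intensities. Spot means were then corrected with normexp (offset 50) and loess-normalized with control spots weighted 0 (limma 3.58.1, R 4.3.3), and spots of an ID were averaged. A probe was tested when its spot exceeded the local background by 2 SD in either channel on 3 or more arrays. Red-channel folds used loess and Aquantile, with the higher of the probe's own signal and the lowest signal above the blank level as the floor. Trend and period fits used lmFit and eBayes with Benjamini-Hochberg adjustment at 0.05 over 16108 probes and were tested on simulated data. Stages taken from 1 clutch are not independent samples, and with different clutches stage and clutch could not be told apart.

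The members and the lists were chosen with earlier results of these data known. By rule, the text names the 2 unflagged members with the largest fall after loess and, among members called in the trend, the 2 with the largest fitted rise and the 2 with the largest fitted fall. IDs could not be paired with genes, so the planned gene lists gave no result. Alternatives covered the rule's threshold, detection, normalization, filters, flags, hours in place of stage order and leaving out each array.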

Additional observations from a re-analysis of the deposited data

How the results depend on the processing

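The number of members depended on the rule. It was 36 with a fall of at least 1.5, 170 with at least 0.8, 143 with detection against the local background, 52 with print-block loess, 34 when detection at high was also asked and 52 without flagged spots. It was 3802 with the authors' table as deposited, in which array medians are not subtracted. An alternative added after seeing the data, a fall of at least 1 to sphere as well, kept 29. After loess 57 IDs met the rule, of which 48 were among the 81. Of members higher and lower late in gastrulation there were 6 and 6 with the rule's ratio. The authors' table after subtracting medians also gave 6 and 6, but it is not a separate processing. At tailbud, for example, 99.2% of its values lay within 0.001 of the rule's ratio before centring. A filter on the blank level, which 58 members passed, left 5 falling from sphere to tailbud and 7 lower at 30% epiboly than at sphere. The 48 members falling by 1 after loess gave 4 (8.33%) and 5 (10.4%), against 11.2% and 13.8% of the 80 tested members. The 52 unflagged members, added after seeing the data, gave 9 rising (17.3%) and 3 higher at 30% epiboly (5.77%). Among the 80 tested members these shares were 20% and 11.2%. Leaving out 1 array at a time gave 11 to 16 rising, 4 to 10 falling, 4 to 13 higher late and 4 to 9 lower late. For these refits, the other ratios and the filter on the blank level, shares of all tested probes were not counted. No paired analysis was possible because each stage has 1 array. With 34 of the 81 members above the blank level at high, the size of the fall is poorly measured for the rest.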
